A study of Rattus norvegicus with 9 samples.

Results

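The mRNA levels of 8 genes of the renin-angiotensin-aldosterone system (Agt, Ace, Enpep, Agtr1a, Agtr2, Mas1, Nr3c2 and Hsd11b2) were compared among 9 arrays of rat right ventricle. The genes were chosen by name, with the features annotated with exactly 1 of these symbols, and the brightest feature was to be taken where a gene had several. Each of the 8 had 1 feature, out of 15310 features with 1 gene symbol and 29215 features in all. All animals were male Sprague-Dawley (SD) rats, and each group was measured on 3 Affymetrix Rat Gene arrays. The Sham group had been sham-operated. The PAB F(-) and PAB F(+) groups had undergone pulmonary artery banding (PAB), a constriction that makes the right ventricle pump against a raised load, and had been divided weeks after the operation by the fibrotic area of the heart tissue. The F+ group lay above the set area and the F- group below it. Ages are not stated. Whether each array stands for its own animal is not stated either, and p-values therefore cover only array-to-array spread, part or all of which may be technical.

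Angiotensinogen, the product of Agt, is cut in steps, the last by angiotensin-converting enzyme (Ace), to angiotensin II, which raises blood pressure and promotes growth and fibrosis of the heart mainly through the AT1 receptor (Agtr1a). Enpep, or aminopeptidase A, trims angiotensin II further, and the AT2 (Agtr2) and Mas (Mas1) receptors are known mostly for opposing actions. Aldosterone, the steroid at the end of the cascade, acts on the mineralocorticoid receptor (Nr3c2), and Hsd11b2 encodes the enzyme that inactivates corticosterone and so keeps it off that receptor in aldosterone target tissues.

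Ace and Enpep were the members whose F+ arrays all lay above the other 6 arrays, as in 1.7% of all features. The bases before their start sites are therefore shown, from RefSeq on the rat assembly GRCr8, 5′ to 3′ on the strand of the gene. Of the 8 members, 5 had an entry, and each window shown holds the 250 bases before the annotated start, with matches to the motifs below in capitals.
Ace, chr10:91409879-91410128, + strand: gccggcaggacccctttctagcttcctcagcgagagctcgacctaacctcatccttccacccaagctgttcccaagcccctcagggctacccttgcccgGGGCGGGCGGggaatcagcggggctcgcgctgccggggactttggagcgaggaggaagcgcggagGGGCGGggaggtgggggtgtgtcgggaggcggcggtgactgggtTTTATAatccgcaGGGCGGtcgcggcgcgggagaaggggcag
Enpep, chr2:220526219-220526468, - strand: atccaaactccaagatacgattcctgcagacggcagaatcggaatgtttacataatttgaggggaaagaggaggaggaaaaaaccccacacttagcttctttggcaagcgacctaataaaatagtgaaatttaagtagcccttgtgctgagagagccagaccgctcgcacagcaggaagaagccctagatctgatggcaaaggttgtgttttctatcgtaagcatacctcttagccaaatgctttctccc
The motifs searched, on both strands, were the TATA box (TATAAA), the CCAAT box (CCAAT), the GC box (GGGCGG) and a half-site of corticosteroid receptors (TGTTCT). The Ace window held 4 matches to the GC box, beginning 151, 147, 86 and 29 bases before the start, of which the first pair overlap, and 1 match to the TATA box on the opposite strand at 42 bases. None of the motifs matched in the Enpep window. Over all 33469 windows of this length, 30.5% held the GC box, 12.9% the TATA box, 34% the CCAAT box and 17.5% the half-site. G and C made up 69.2% of the Ace window and 45.2% of the Enpep window. These matches describe the letters only.

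The authors deposited 1 signal intensity per feature and array. Medians of the arrays were 33.4 to 33.9, and the sources used here do not give how they had been scaled or normalized. Differences are therefore of mean log2 deposited values, and they hold on that scale. Of 7 ventricular cardiomyocyte markers, all 7 were measured, with mean intensities of 136 or more. Of 4 atrial markers (Nppa, Myl7, Sln and Bmp10), Myl7, Sln and Bmp10 were highest on sham array 2, where they summed to 350.8 against 122.4 to 169.5 on the other 8 arrays. Nppa, which ventricles also express under load, was high there (135.8), on F- array 1 (155.6) and on the F+ arrays (134.3 to 149.5). F- array 1 had the lowest sum of the other 3 markers, and the F+ sums were 125 to 160.6. Results on the members are also given without sham array 2 and F- array 1 where that changes them.

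Between the F+ and F- groups, 6 of the 8 genes had higher F+ means and 2 had higher F- means, with a median log2 difference of 0.082, against -0.0023 over all features. Ace stood highest at 0.25, and Nr3c2 lowest at -0.036. By limma, a linear model fitted over all features, 0 of the 8 passed the Benjamini-Hochberg adjusted threshold of 0.05, beside 0.00342% of all features that did. At an unadjusted p under 0.05 there were 2 of the 8, Ace and Enpep, and 7.41% of all features. The arrays of the groups did not overlap in the same 2 genes, both higher in the F+ group, as in 4.46% of all features.

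In F- against sham, 7 of the 8 genes had lower means, at a median of -0.040, against -0.0025 over all features. None passed when adjusted (0% of features), and 1 of the 8, Hsd11b2, had an unadjusted p under 0.05, as did 6.03% of features. In F+ against sham, 5 were higher and 3 lower (median 0.022), again with none past the adjusted threshold (0% of features). There, 2 of the 8 had an unadjusted p under 0.05, Ace as higher and Nr3c2 as lower, against 7.4% of features. With all 6 banded arrays against the 3 sham arrays, 4 were higher and 4 lower (median -0.0074), and Ace alone had an unadjusted p under 0.05 in limma, against 6.29% of features. The two-sided exact permutation test, run on each of the 8 and not adjusted, differed here, with p = 0.286 for Ace and 0.0476 for both Nr3c2 and Hsd11b2, which had lower banded means. No member had all banded arrays on 1 side of all sham arrays, as 2.63% of features did. These comparisons share arrays and are not independent of each other.

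**Figure D1:**
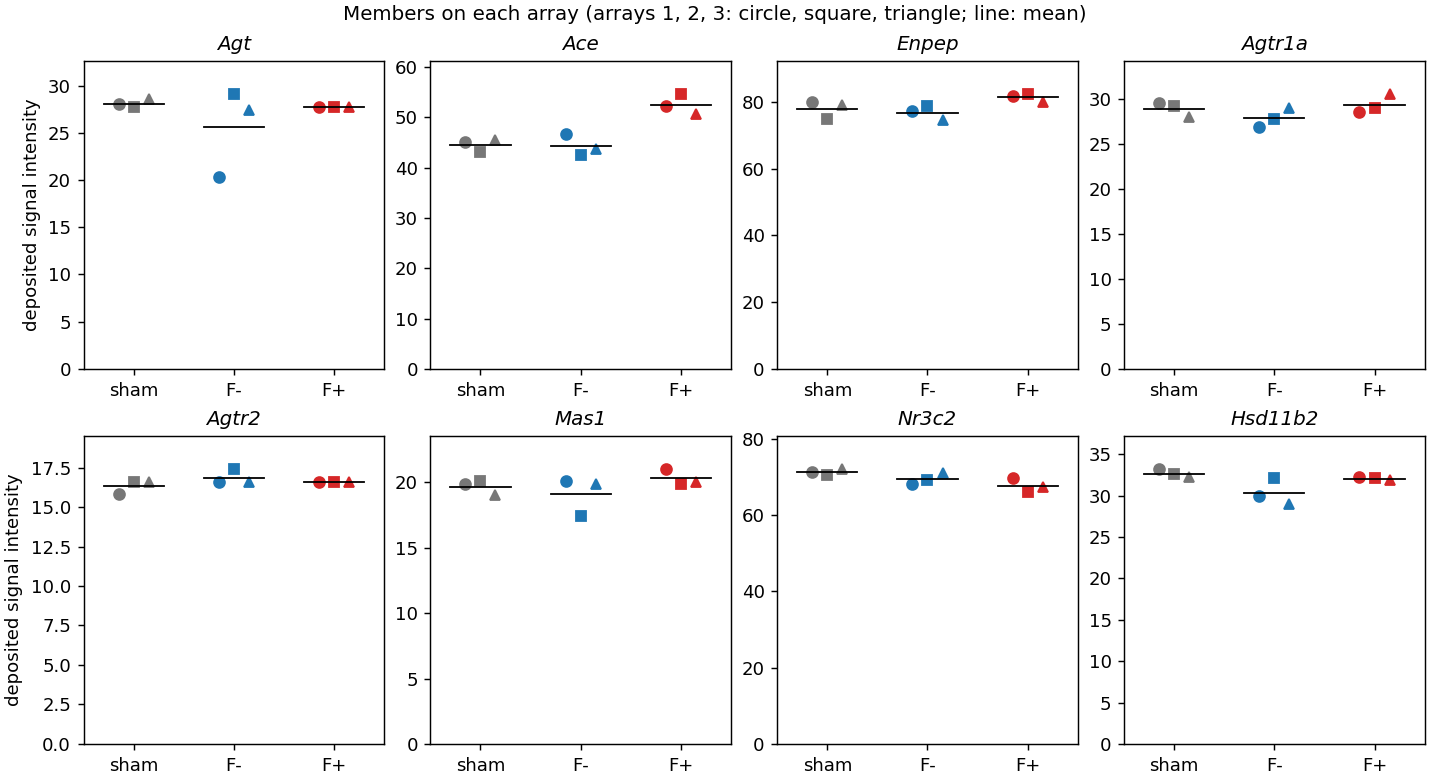
Deposited signal intensity (vertical axis) of the 8 genes by group, 1 point per array (circle, square and triangle for array 1, 2 and 3) and a line at the mean. The F+ arrays of Ace lie between 50.6 and 54.6, above the other 6, and F- array 1 of Agt lies apart at 20.3.

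Agt, on chromosome 19 (positions 69426540 to 69447017 in GRCr8), encodes the precursor from which all angiotensins are made. Its sham intensities were 28, 27.7 and 28.6, its F- intensities 20.3, 29.1 and 27.4, and all 3 F+ arrays read 27.7. The value of F- array 1 was the only one outside 27.4 to 29.1. The F+ group mean exceeded that of the F- group by 0.13 on the log2 scale (standard error 0.12, interval at 95% confidence -0.14 to 0.40, limma adjusted p = 0.802), and without F- array 1 the difference turned to -0.028. Likewise, the F- group differed from the sham-operated group by -0.15 with all arrays and by 0.0072 without F- array 1. On that array, 0.144% of all features lay as far below the lowest of the other arrays as Agt did, or further. The genes whose log2 values over the 9 arrays were most like those of Agt were Tsks, Lrrc4 and Cdk5rap2, all at a Pearson r of 0.99. Tsks gave 24.1 on F- array 1 and 28.4 to 28.9 elsewhere, Lrrc4 15.3 and 19.1 to 19.6, and Cdk5rap2 32 and 35.1 to 35.6. All 3 genes, like Agt, thus had their lowest value on F- array 1, which follows from their choice by likeness to Agt.

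**Figure D2:**
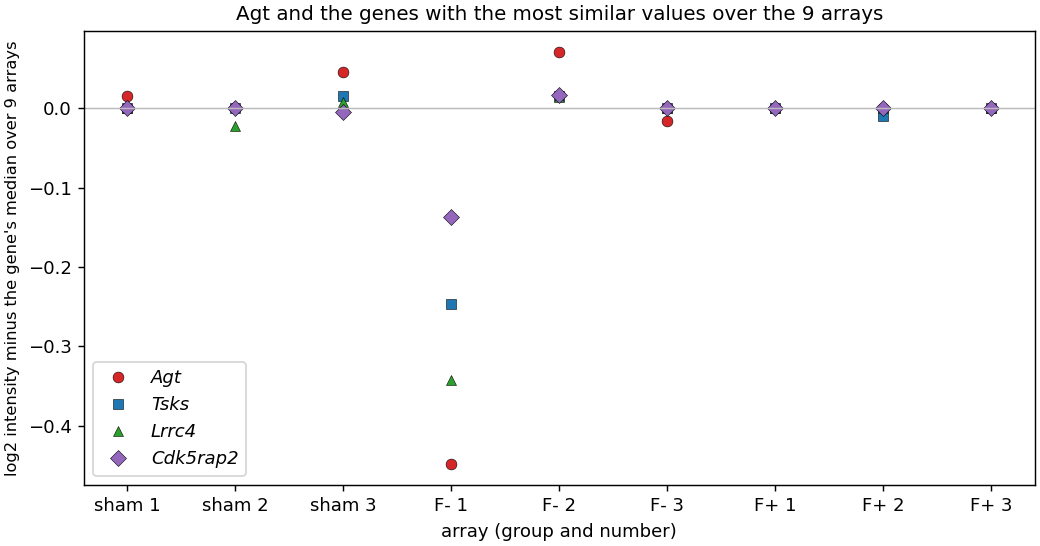
Log2 intensity of Agt, Tsks, Lrrc4 and Cdk5rap2 minus each gene's own median over 9 arrays (vertical axis) for each array (horizontal axis). All 4 genes are low on F- array 1 and near their median on the other 8 arrays. Tsks, Lrrc4 and Cdk5rap2 were chosen for their likeness to Agt.

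Ace, on chromosome 10 (91410129 to 91430246), encodes the peptidase that forms angiotensin II and breaks down bradykinin, and in the heart it is known from endothelium and, after injury, from macrophages and fibroblasts. The F+ arrays gave 52.3, 54.6 and 50.6. On the F- arrays the intensity was 46.6, 42.4 and 43.6, and on the sham arrays it was 45.1, 43.1 and 45.5. All 3 F+ arrays thus lay above the other 6, which is so for 1.7% of all features (against sham alone, 5.69%), and the F- and sham arrays overlapped throughout. Means were 52.5 ± 2.01 for F+, 44.2 ± 2.16 for F- and 44.6 ± 1.29 for sham (SD, n = 3 each).

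Ace had a log2 difference, F+ minus F-, of 0.25 (standard error 0.045, interval at 95% confidence 0.14 to 0.35, unadjusted p = 0.000658, adjusted p = 0.469 in limma). By unadjusted p it ranked 41 among the 29215 features. F+ minus sham was 0.24 (0.13 to 0.34, adjusted p = 0.579) and F- minus sham -0.013 (-0.12 to 0.093, adjusted p = 0.953). The two-sided exact permutation test of F+ against F- gave p = 0.1, which is as small as groups of 3 can reach. A log2 difference of 0.25 is a fold of 1.19 on the deposited values, which the study takes as linear, since its fold changes are plain ratios of group means. If the values were instead squares of log2 values, the fold would be 1.51. Leaving out any 1 array kept the difference between 0.22 and 0.29, with an adjusted p of 0.102 to 0.836. Without sham array 2 and F- array 1 together it was 0.29 (adjusted p = 0.143).

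Ace had a higher mean in the F+ than in the F- group, as did all measured macrophage, pericyte and smooth muscle, and red cell markers. Single arrays did not always go together. The pericyte and smooth muscle sum was 695 on sham array 1 and 689.1 on F+ array 1, where Ace read 45.1 and 52.3. Of 8 endothelial markers measured (Pecam1, Cdh5, Kdr, Tek, Tie1, Emcn, Egfl7 and Cldn5), 5 had higher and 3 lower F+ than F- means, with a median log2 difference of 0.020. Their summed intensity was 603.3 to 615.5 (F+), 593.6 to 614.3 (F-) and 600.7 to 636.5 (sham), so that all groups overlapped. All 8 macrophage markers were higher, with a median of 0.23 and sums of 501.4 to 542.2 (F+), 405.6 to 506.5 (F-) and 425.8 to 445.3 (sham). F- array 1, where Ace reached 46.6, held the 506.5. All 8 markers of pericytes and smooth muscle were higher as well, with a median of 0.094 and sums of 689.1 to 712.9 (F+), 661.6 to 668.5 (F-) and 679.5 to 695 (sham). Of 4 red cell markers, all 4 were higher as well, with a median of 0.75 and sums of 150.7 to 257.5 (F+), 100.2 to 114.4 (F-) and 115.5 to 128 (sham). The 7 fibroblast markers split into 4 higher and 3 lower, with a median of 0.011 and sums of 589.1 to 636.2 (F+), 599.4 to 617.7 (F-) and 587.7 to 630.1 (sham). No marker of these lists was at 0. In whole tissue, more cells of a type and more RNA per cell cannot be told apart, and the part of these cells in the values of Ace was not tested. The genes with log2 values most like Ace over the 9 arrays were Ptgds, which encodes a prostaglandin D synthase (r = 0.98), Glb1, which encodes lysosomal beta-galactosidase (r = 0.96), and Itgam, which encodes the integrin alpha M of myeloid cells (r = 0.96). For Ptgds the F+ values were 43.3 to 51.3 and all others 31.4 to 40.

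**Figure D3:**
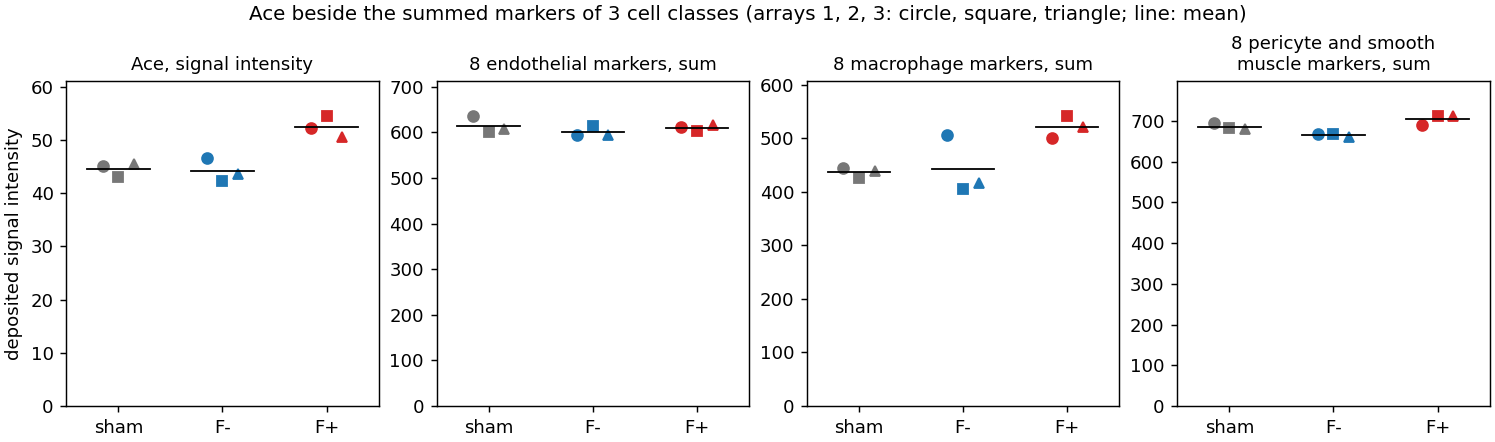
Signal intensity of Ace (left panel) and summed intensities of 8 endothelial, 8 macrophage and 8 pericyte and smooth muscle markers on each array (vertical axes, from 0), with the group mean as a line. Ace and the pericyte and smooth muscle sum are higher on the F+ than on the F- arrays, F- array 1 lies among the F+ arrays for macrophage markers, and the endothelial sums overlap.

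Enpep, on chromosome 2 (220456258 to 220526218), encodes the aminopeptidase that converts angiotensin II to angiotensin III and is known from pericytes and kidney epithelium. Its F+ intensities were 81.8, 82.4 and 80, its F- intensities 77.3, 78.8 and 74.5, and its sham intensities 79.9, 74.8 and 79.1. The F+ arrays lay above the other 6, but F+ array 3 (80) barely above sham array 1 (79.9). F+ minus F- was 0.083 on the log2 scale (standard error 0.035, interval at 95% confidence 0.0019 to 0.16, unadjusted p = 0.046, adjusted p = 0.672 in limma). F+ against sham gave 0.063 (-0.018 to 0.14, adjusted p = 0.709) and F- against sham -0.020 (-0.10 to 0.061, adjusted p = 0.895). The pericyte and smooth muscle sums given above also had no overlap between the F+ and F- arrays, and their part in Enpep was not tested.

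The 3 receptors of angiotensin peptides had overlapping arrays in every comparison. Agtr1a, on chromosome 17 (34383397 to 34435523), had sham values of 29.6, 29.3 and 28, F- values of 26.9, 27.8 and 29, and F+ values of 28.6, 29 and 30.6. The order of its group means was F+, sham and F-, at 29.4 ± 1.06, 29.0 ± 0.850 and 27.9 ± 1.05 (SD, n = 3 each), and no neighbours in this order differed beyond their spread. F+ minus F- was 0.076 (-0.019 to 0.17, adjusted p = 0.705 from limma). The genes most like Agtr1a over the 9 arrays were Slc10a7 (r = 0.94), Tas2r126 (0.92) and Edn1, the endothelin-1 gene (0.91).

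Agtr2, on the X chromosome (116914320 to 116918504), is expressed mainly before birth and at low levels in the adult heart. Its feature read 16.6 on 7 of the 9 arrays, 15.8 on sham array 1 and 17.4 on F- array 2. The same value on 7 or more arrays was found in 1.09% of all features, and all 3 F+ arrays alike, as for Agt and Agtr2, in 2.42%. The differences, -0.023 for F+ minus F- (-0.094 to 0.049) and 0.046 for F- minus sham (-0.025 to 0.12), moved with single arrays. Without F- array 2 they were 0 and 0.024.

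Mas1, on chromosome 1 (50428064 to 50459537), encodes the receptor of angiotensin-(1-7). The sham arrays gave 19.9, 20.1 and 19, the F- arrays 20.1, 17.4 and 19.9, and the F+ arrays 21, 19.9 and 20. F- array 2 was the lowest of all. F+ minus F- was 0.088 (-0.046 to 0.22, limma adjusted p = 0.743), and 0.021 without F- array 2. Agtr2 and Mas1 were the members among the dimmest 33.3% of features, where no detection call was at hand.

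The mineralocorticoid receptor gene had its lowest mean in the F+ group and its highest in the sham-operated group. Nr3c2, on chromosome 19 (47619853 to 47964089), had sham values of 71.3, 70.6 and 72.1, F- values of 68.2, 69.2 and 71, and F+ values of 69.8, 66.2 and 67.3. Every F+ array lay below every sham array, as in 6.56% of all features, and the F- arrays overlapped with both. F+ minus sham was -0.074 (standard error 0.029, interval at 95% confidence -0.14 to -0.0070, unadjusted p = 0.0346, adjusted p = 0.655 in limma). F- minus sham was -0.038 (-0.11 to 0.029) and F+ minus F- was -0.036 (-0.10 to 0.031), neither beyond the spread between arrays.

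Hsd11b2 was lower on the F- arrays than on the sham arrays. It lies on chromosome 19 (50307569 to 50312812) and had sham values of 33.2, 32.6 and 32.2, F- values of 29.9, 32.1 and 29, and F+ values of 32.2, 32.1 and 31.9. Every F- array lay below every sham array, as in 4.64% of features, although F- array 2 (32.1) lay next to sham array 3 (32.2). The log2 difference of F- minus sham was -0.11 (standard error 0.038, interval at 95% confidence -0.20 to -0.020, unadjusted p = 0.0228, adjusted p = 0.743 in limma). It was -0.15 without F- array 2 and -0.076 without F- array 3. F+ minus F- was 0.081 (-0.0071 to 0.17, adjusted p = 0.677) and F+ minus sham -0.027 (-0.12 to 0.062, adjusted p = 0.882).

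**Figure D4:**
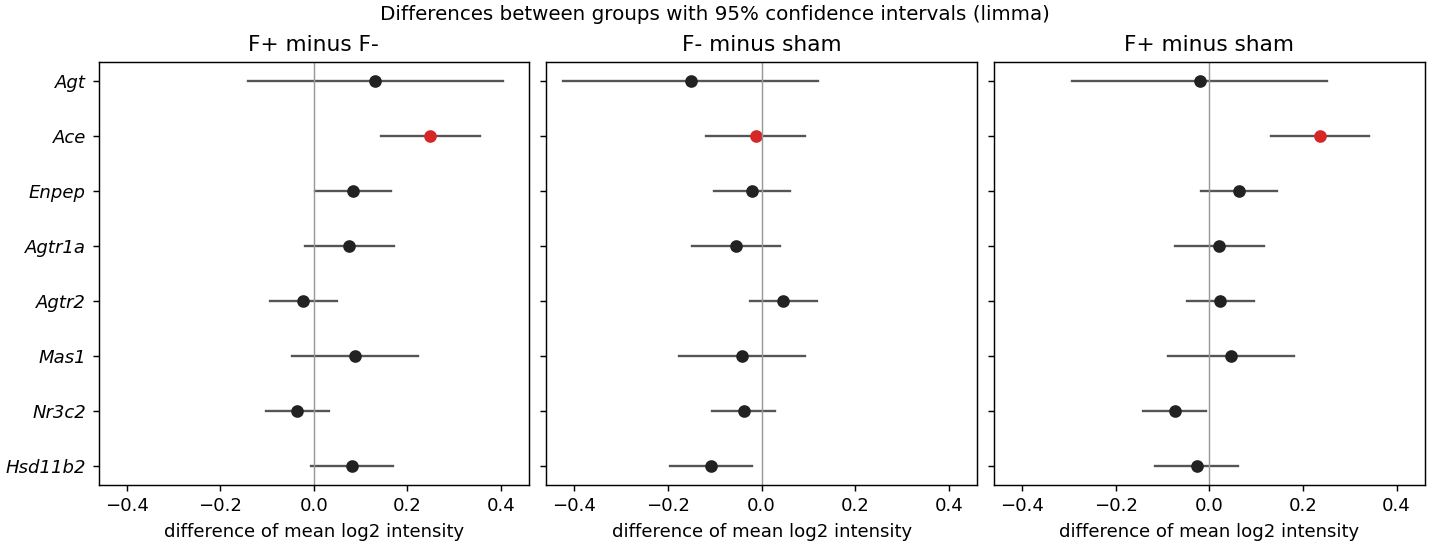
Differences of mean log2 intensity (horizontal axis) of the 8 genes as points with 95% confidence intervals from limma as lines, for F+ minus F-, F- minus sham and F+ minus sham. The interval of Ace (red) lies above 0 in the comparisons with the F+ group, at 0.14 to 0.35 and 0.13 to 0.34, and includes 0 for F- minus sham.

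Of 64 other genes of the pathway, in 6 lists by role, 60 were measured, and 0 passed the adjusted threshold of limma in any of the comparisons. Between the F+ and F- groups, 41 were higher and 19 lower (median log2 difference 0.030), where 48.2% of all features were higher. Of the 60, 10 (16.7%) had an unadjusted p under 0.05 in limma, beside 7.41% of all features. Such a p was found for 2 (3.33%, beside 6.03% of all features) in F- against sham, for 8 (13.3%, beside 7.4%) in F+ against sham and for 5 (8.33%, beside 6.29%) in banded against sham. The remaining 4 were not analysed here. The lists were chosen with earlier results of these data known, so that these counts and shares only describe the listed genes.

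Among 6 genes listed for renin and the proteases that form angiotensins or kinins, not all of them proteases, 5 had higher F+ than F- means. Cma1, which encodes a mast cell chymase able to form angiotensin II, had F+ values of 15, 20.2 and 17.9, F- values of 14.8, 13.6 and 13.7, and sham values of 14.8, 10.9 and 12.6. F+ minus sham was 0.47 (unadjusted p = 0.00784, adjusted p = 0.616 in limma) and F+ minus F- 0.33 (adjusted p = 0.671 from limma). Summed mast cell markers, 6 of 7 measured and Cma1 among them, were 135.1 to 181.4 (F+), 122.2 to 134.6 (F-) and 126.8 to 133.4 (sham), and their part was not tested. Klk1, which encodes a tissue kallikrein that releases kinins, had F+ values of 31 to 33.2 and F- values of 26.7 to 30.4 (log2 difference 0.17, adjusted p = 0.624).

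Of 9 peptidases that shorten angiotensins, 4 had higher and 5 lower F+ than F- means. Rnpep, which encodes aminopeptidase B, had F+ values of 45 to 46.9, F- values of 48.8 to 51.2 and sham values of 46 to 47.5. It was the member of this list with the smallest p both between F+ and F- (log2 difference -0.12, adjusted p = 0.567 from limma) and between F- and sham (0.10), the F- arrays lying above all others. Nln, which encodes neurolysin, had -0.076 between F+ and F-.

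Among 11 receptors and partners, 9 were higher in the F+ group, with values from -0.060 to 0.11. Agtrap, which encodes a protein that binds the AT1 receptor and promotes its uptake into the cell, had 0.068 (adjusted p = 0.671), and the lowest F+ and the highest F- array both read 65.2. Of 8 genes of corticosteroid synthesis, Hsd11b1, which encodes the enzyme that regenerates active corticosterone, had F+ values of 67 to 72.3 and F- values of 62 to 65.8 (log2 difference 0.10, adjusted p = 0.672). The other genes of that list had no unadjusted p under 0.05 in this comparison. The list of 14 corticosteroid receptor and target genes split evenly, 7 higher and 7 lower. Lcn2, which encodes lipocalin 2 and responds to aldosterone in vessels, had F+ values of 30.5 to 33.8 and F- values of 43.1 to 55.4 (log2 difference -0.62, standard error 0.088, adjusted p = 0.318), and Fkbp4, which encodes a chaperone partner of steroid receptors, -0.17 (adjusted p = 0.672). Sgk1, a kinase gene induced by aldosterone, had 0.086 (adjusted p = 0.806), with overlapping arrays.

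Genes known to respond to angiotensin II in the heart had higher means for F+ than for F- in 10 of 12 cases, with a median of 0.25. Among all features, 48.2% were higher. Only 2 of the 12 had an unadjusted p under 0.05 in limma, and 0 passed when adjusted. Edn1 had F+ values of 29.2, 33.9 and 40.9 and F- values of 22.5, 25.5 and 27.3, a log2 difference of 0.46 (standard error 0.13, adjusted p = 0.601 from limma). Its sham values, 26.8 to 31.8, overlapped with both. Cybb, the gene of a NADPH oxidase subunit of phagocytes, had F+ values of 75.6 to 82.4 and F- values of 77, 62.8 and 62.2 (0.25, adjusted p = 0.635), high on F- array 1 as were the macrophage markers. Nppa, also an atrial marker, had F+ values of 134.3 to 149.5 (1.16, adjusted p = 0.682 in limma). It was above them on F- array 1 (155.6), within them on sham array 2 (135.8), and 37 to 59.7 on the other 4 arrays. Nppb had F+ values of 137.4 to 142.7 and sham values of 91.9 to 100.2, with 151.8 on F- array 1 (0.28 for F+ minus F-, adjusted p = 0.704). Fgf23, on which the study turns, had every F+ array (35.6 to 43.4) above the other 6 (23.4 to 27.4). So did Ace, Enpep and 1.7% of all features.

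**Figure D5:**
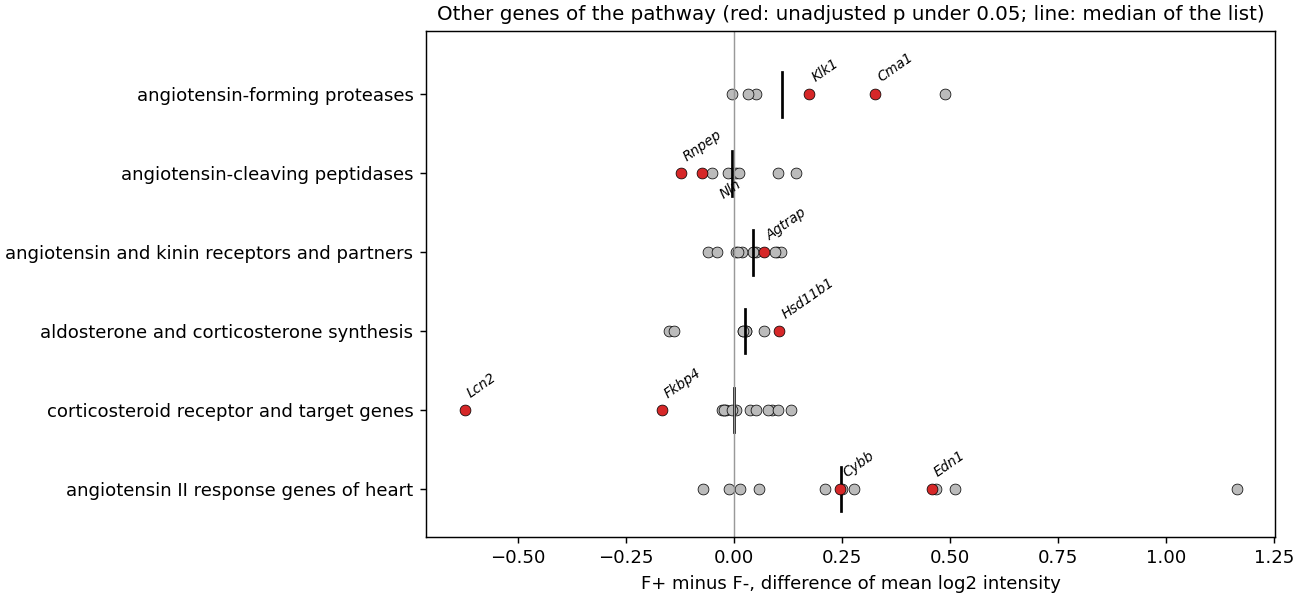
F+ minus F- differences of mean log2 intensity (horizontal axis) of 60 other genes of the pathway in 6 lists (vertical axis), with the median of each list as a line. Genes with an unadjusted p under 0.05 from limma are red and named, and none passed after adjustment over all features.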

How the data were processed

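Total RNA of right ventricles was measured on 9 Affymetrix GeneChip Rat Gene 1.0 ST arrays. The authors deposited a single table of signal intensity, 29215 features by 9 arrays, and their software and normalization are not given in the sources used here. In the study they were treated as linear, with fold changes as ratios of means. For the RNA the methods name TRIzol, whereas the sample records name Sepasol. All columns were used. The deposited intensities were taken to log2 without further normalization and fitted in limma 3.58.1 (lmFit, eBayes) under R 4.3.3, with the package data.table, version 1.17.8 for reading and a separate mean for each of the groups, and p-values were adjusted over all features by the Benjamini-Hochberg method. Features were named by the platform annotation, in which 15310 had 1 symbol, 323 had several and 13582 had no entry. Of the named ones, 15279 matched by gene ID to RefSeq on GRCr8, which changed 0 symbols. The members, lists and alternatives were chosen with earlier results of these data known. The rule for naming took all members, up to 4 genes per list with the smallest p in F+ against F- plus the smallest in F- against sham, the 3 genes most like each member by Pearson r, and Fgf23. As alternatives, arrays were quantile normalized or centred on their medians, values were kept untransformed or as square roots, and the fit was restricted to brighter features (without the dimmest 33.3%), to features with 1 symbol or to the arrays of the pair of groups in question. A replicate block, a variance trend with robust priors, each array left out, and sham array 2 with F- array 1 left out were also tried. Only the number of arrays was available as a measure of precision. Python 3.11.15 with matplotlib 3.10.9 made the plots. The RT-PCR and cell culture data were not analysed here.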

Additional observations from a re-analysis of the deposited data

Results flagged for a closer look

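Among the 6 banded arrays, a single array lay far from the others for 3 of the 8 genes, where the gap to the nearest array divided by the whole range of log2 values exceeded the limit of 0.625 for 6 arrays. Chance passes this limit in about 1 of 20 groups of normally distributed values. The share of all features that pass it was not computed, so the count of 3 has nothing to be set beside. Agt was lowest on F- array 1 (ratio 0.833), at 20.3 against 27.4 to 29.1. Mas1 was lowest on F- array 2 (ratio 0.714), at 17.4 against 19.9 to 21. Agtr2 was highest on F- array 2 (ratio 1), at 17.4 against 16.6 on each of the other 5. With such repeated values any departure of 1 array gives a ratio of 1.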

How the results depend on the processing

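No member passed the adjusted threshold of limma under any of 19 alternatives, and the lowest adjusted p was 0.102, for Ace between the F+ and F- groups without F- array 1. Of 32 member differences, 21 kept their sign throughout and 2, both of Agtr2, reached 0 without reversing. Among the 21 was Ace in its comparisons with the F+ group. The count of features passing between F+ and F-, 1 in the main analysis, was 3 without the dimmest features, with 1 symbol only, with a variance trend, with untransformed values and without sham array 2 and F- array 1. It was 0 with only the groups compared, and 0 to 3 when single arrays were left out. With the replicate number as a block it was 0. The deviations of same-numbered arrays from their group means correlated at -0.21 to 0.053. Differently numbered arrays were not compared, so these values cannot settle whether the numbers pair the arrays. The block changed no call of a member. For F+ against sham, 1 feature instead of 0 passed with only the groups compared and without sham array 2 and F- array 1. Without that pair, F+ minus F- of Agt turned to -0.028, and banded minus sham turned to 0.0049 for Agtr1a, -0.00089 for Mas1 and -0.0096 for Enpep. With single arrays left out, signs turned within these ranges. They were -0.028 to 0.23 for Agt in F+ minus F-. In F- minus sham they were -0.051 to 0.017 for Ace, -0.25 to 0.0072 for Agt, -0.079 to 0.025 for Mas1 and -0.049 to 0.0027 for Enpep. In F+ minus sham it was -0.0079 to 0.041 for Agtr1a. In banded minus sham they were -0.023 to 0.035 for Mas1 and -0.0075 to 0.040 for Enpep. The cause of these changes was not tested. Agtr2 and Mas1 have no value without the dimmest features, and the mean of several features of a gene was not run, since each member had 1.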

Other observations

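The genes whose log2 values over the 9 arrays were most like those of Nr3c2 were Got2, Sdha and Pink1, each at a Pearson r of 0.96 or 0.97. They encode a mitochondrial aminotransferase, a subunit of succinate dehydrogenase and a kinase of mitochondrial quality control. Sdha had sham values of 126.7 to 130.9, F- values of 124.2 to 127.3 and F+ values of 120 to 126.5, so that every F+ array lay below every sham array, as for Nr3c2. For Hsd11b2 the closest were Krt7, N4bp3 and Rprm, at 0.97 or 0.98. Krt7, a keratin gene of simple epithelia, had sham values of 28 to 29, F- values of 26.6, 28 and 25.6, and 28 on each F+ array. Enpep was most like Cend1 (0.95), Mapk7 and Pdpn (0.94 each). Pdpn, the podoplanin gene of lymphatic endothelium and mesothelium, had F+ values of 57.3 to 58.9, F- values of 53.1 to 56.6 and sham values of 54.3 to 58. These genes were chosen for their likeness out of all genes, so that the r values are a description over 9 arrays that share the groups.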
